A study of Homo sapiens with 5 samples.

Results

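The genes described here encode subunits of ATP-dependent chromatin remodelling complexes and related ARID, BAZ and SNF2 proteins, measured by RNA sequencing in NK92MI cells. They were chosen by gene symbol: the SMARCA to SMARCE series, ARID1 to ARID5 genes with the suffix A or B, CHD1 to CHD9, INO80 and INO80B to INO80E, BAZ1A to BAZ2B, PBRM1, ACTL6A, BPTF and EP400. Of 42 symbols that fit these names, 39 had at least 10 counts in at least 2 libraries, and these 39 are the members among the 57221 rows of the table. The rule itself uses no fold change, but it was set with earlier results of these data known. NK92MI is a human natural killer cell line whose introduced IL2 gene supplies the interleukin it would otherwise need from the medium. Cells were kept for 48 h with the solvent DMSO (2 libraries) or with 10 µM UNC1999 (3 libraries), a small molecule that inhibits the histone methyltransferases EZH2 and EZH1 of polycomb repressive complex 2. Apart from the compound, the labels give both groups the same line and culture medium. Separate cultures are not named in the labels, and every p-value here therefore reflects only how far these libraries spread, which may be technical.

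Chromatin remodellers use the energy of ATP to slide, eject or exchange nucleosomes. SWI/SNF complexes (also called BAF and PBAF) open chromatin and oppose polycomb repression at many genes, ISWI complexes space nucleosomes, CHD proteins include the ATPases of the NuRD deacetylase complex, and INO80 and EP400 complexes handle the histone variant H2A.Z. In natural killer cells and other lymphocytes, SWI/SNF and NuRD complexes act with lineage transcription factors.

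Library totals lay between 8442908 and 8748106 counts, and all 39 members passed the low-count filter of the test, as did 13075 genes in all. Of 14 natural killer cell markers 13 exceeded 1 CPM (the count divided by the scaled library size in units of 1e+06 counts) in every library, with KLRB1 at most 0.654 CPM, while CD3D, CD3G, MS4A1 and LYZ were at 0 throughout. PAX5 of the B cell list lay at 16.8 to 24.96 CPM, and ITGAM and CSF1R of the myeloid list at 26.6 to 40.7 and 5.09 to 6.71 CPM. The summed T cell receptor list lay at 108 to 116 CPM in DMSO and 82.6 to 93.1 CPM in UNC1999, nearly all of it TRAC, and the part of this in the results was not tested. UNC1999 replicate 2 stood apart from replicates 1 and 3 (chi-square per degree of freedom of 7.47 and 8.77, against 1.81 between those 2 and 3.14 between the DMSO libraries). It was the UNC1999 library nearest to DMSO, at 15.5 and 13.3, against 20.6 to 23.8 for replicates 1 and 3. Without UNC1999 replicate 2, 15 members were higher and 7 lower, against 13 and 7 with all libraries as described next. Calls over all genes increased too, to 2862 higher and 3030 lower of 12880 tested, from 2057 and 2546 of 13075.

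UNC1999 was followed by a mixed shift among remodeller genes. In edgeR's quasi-likelihood test, with Benjamini-Hochberg adjusted p under 0.05 counted as a call, 13 of the 39 members rose, 7 fell and 19 were not called. This is 33.3% of members higher and 17.9% lower, beside 15.7% higher and 19.5% lower of the 13075 tested genes. The 13 that rose were BPTF, INO80D, ARID5B, PBRM1, CHD1, ARID4B, CHD6, ARID4A, CHD9, SMARCA5, BAZ1A, CHD2 and ARID5A. The 7 that fell were CHD4, INO80C, SMARCAL1, ARID3A, BAZ2A, SMARCC1 and INO80. The median log2 fold change (UNC1999 over DMSO) was 0.13 over the members and -0.01 over all tested genes. The members ran from -0.84 in CHD4 to 1.02 in BPTF, and BPTF alone doubled, with a fold change of 2.02. Every UNC1999 library lay above both DMSO libraries for 16 members, or 41.0%, beside 24.2% of all tested genes. Every one lay below both for 13, or 33.3%, beside 30.4% of all tested genes.

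**Figure D1:**
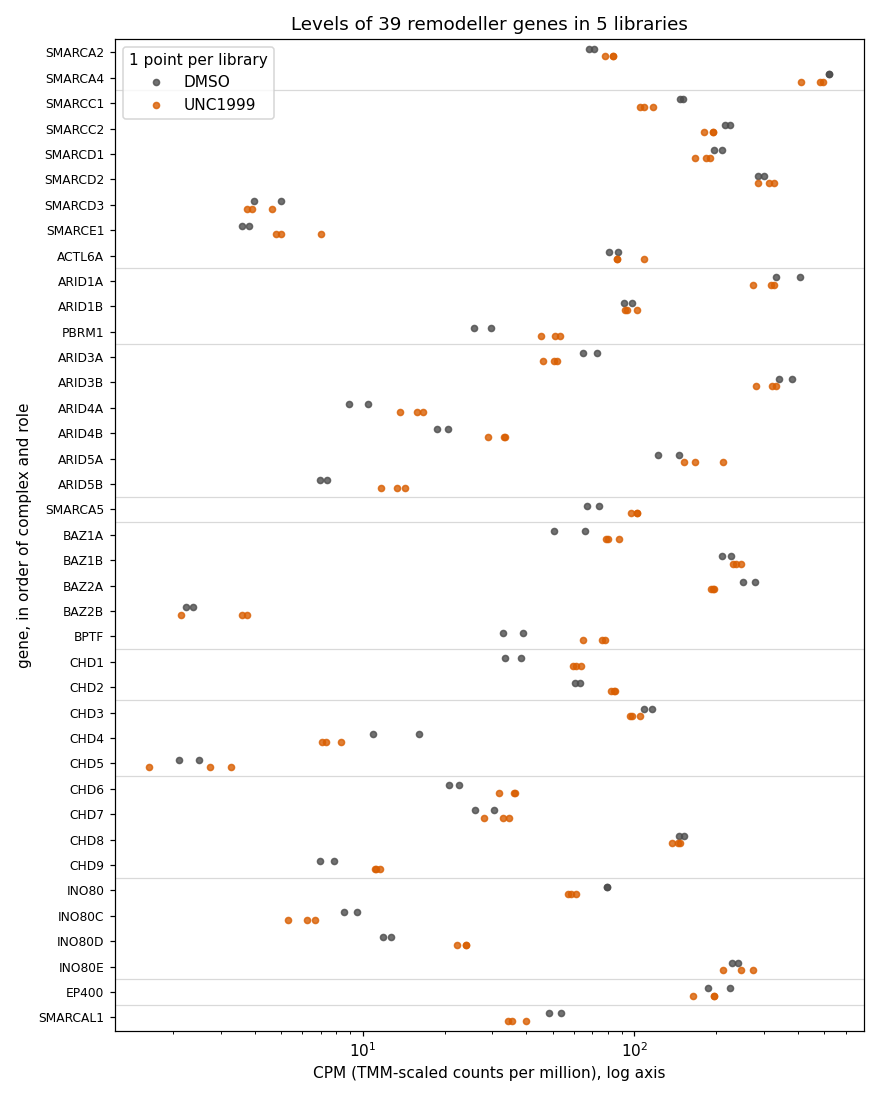
Level of each of the 39 remodeller genes in CPM on a log axis, with 1 point per library, grey for DMSO (2 libraries) and orange for UNC1999 (3 libraries), and grey lines between groups of genes by complex and role. Levels span from BAZ2B and CHD5, near 2.3 CPM in DMSO, to SMARCA4 at 521 CPM, and the BPTF, PBRM1, CHD1 and INO80D points of the 2 groups stand clear of each other.

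The fold changes of all genes in this comparison varied with the GC content of their transcripts. Among tested genes with under 45% GC, 36.5% were higher and 9.81% lower. Between 45% and 55% GC, 3.62% were higher and 43.6% lower, and over 55% GC the shares were 7.32% and 7.20%. Of the 15 members under 45% GC, 10 rose and 1 fell. Of the 13 between 45% and 55%, 2 rose and 5 fell, and of the 11 over 55%, 1 rose and 1 fell. The members also had long transcripts, with a median of 6673 bases against 3239 bases for tested genes with an annotation. A second edgeR fit therefore removed each library's smooth trend in GC content and transcript length (called the offset fit here). In it 9 members were higher and 9 lower, beside 14.6% higher and 18.8% lower of 11017 genes, and the members' median was 0.03. Calls in the same direction in both fits were held by 13 members: BPTF, ARID5B, CHD6, CHD2, PBRM1, INO80D, CHD1 and ARID5A were higher, and CHD4, INO80C, ARID3A, BAZ2A and SMARCC1 were lower. No member was called in opposite directions. Whether the trend came with the compound or with the libraries cannot be told apart here.

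**Figure D2:**
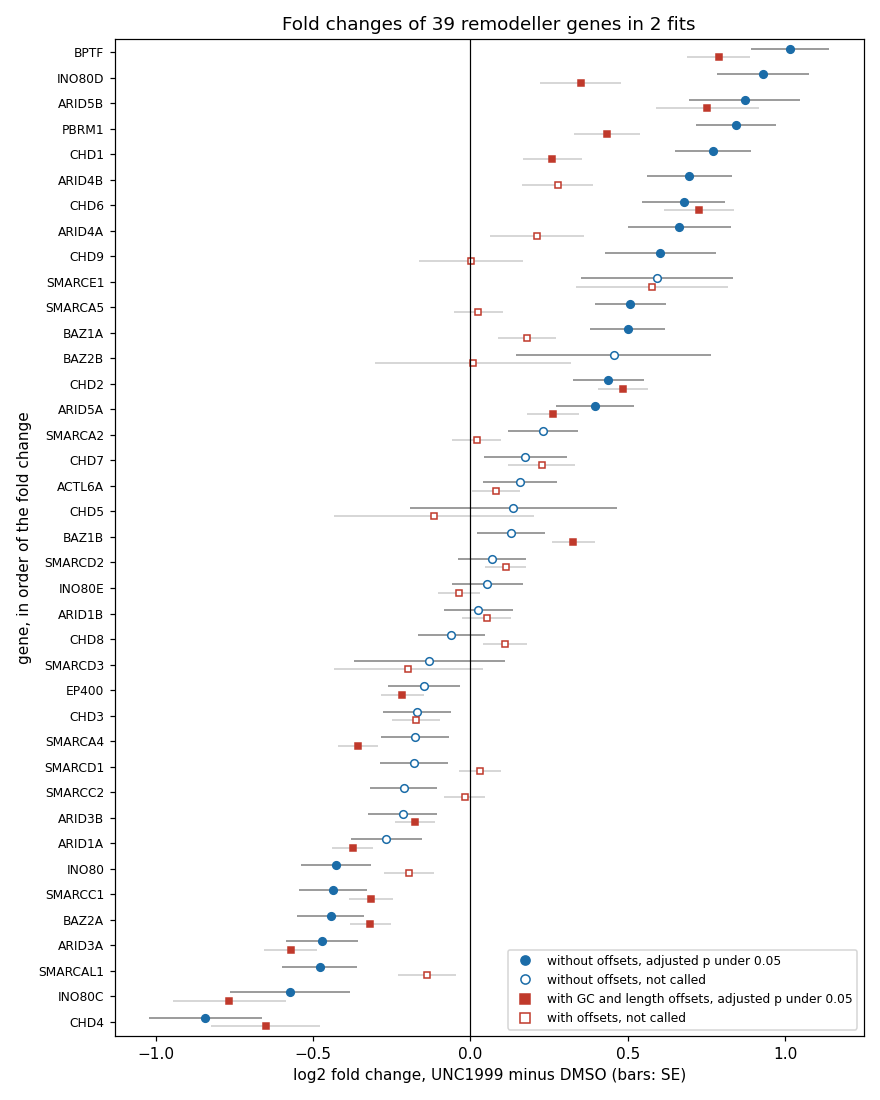
Log2 fold change (UNC1999 minus DMSO) of the 39 remodeller genes with standard errors, as blue circles without offsets and as red squares with offsets for GC content and transcript length, filled where the adjusted p was under 0.05. BPTF lies at 1.02 and 0.79 in the 2 fits, while SMARCA5 moves from 0.51 to 0.03 and CHD9 from 0.60 to 0.00.

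For members called in both fits, the stretches of sequence before listed starts differed widely in CG dinucleotides, but also in length and position. Stretches upstream of starts listed by RefSeq (build GRCh38.p14) are shown for 4 members called in the same direction in both fits, 3 that rose (PBRM1, CHD1 and CHD2) and 1 that fell (BAZ2A). Each was taken to show how many CG dinucleotides and common promoter motifs stand there, and is part of the 250 bases before the listed start that lies outside annotated exons. Capitals mark GC boxes (GGGCGG or CCGCCC) and CCAAT boxes (CCAAT or ATTGG) on either strand, and adjoining capitals can hold 2 overlapping matches. The coordinates are chr3:52685600-52685748 for PBRM1 (149 bases, minus strand), chr5:98929008-98929170 for CHD1 (163 bases, minus strand), chr15:92900074-92900188 for CHD2 (115 bases, plus strand) and chr12:56636380-56636609 for BAZ2A (230 bases, minus strand). The CHD2 stretch ends 135 bases and the BAZ2A stretch 20 bases before the listed start, and the others end at it. In GENCODE 29 the minus-strand genes PBRM1 and BAZ2A begin at 52685917 and 56636816. Their stretches therefore lie inside the annotated genes, before starts listed further in.
PBRM1: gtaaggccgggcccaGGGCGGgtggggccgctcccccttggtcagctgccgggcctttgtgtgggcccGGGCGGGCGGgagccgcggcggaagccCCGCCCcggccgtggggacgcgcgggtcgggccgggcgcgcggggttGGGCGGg
CHD1: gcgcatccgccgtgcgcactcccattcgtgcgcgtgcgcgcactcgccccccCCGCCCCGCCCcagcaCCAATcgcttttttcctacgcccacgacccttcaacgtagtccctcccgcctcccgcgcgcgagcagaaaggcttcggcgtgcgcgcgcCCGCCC
CHD2: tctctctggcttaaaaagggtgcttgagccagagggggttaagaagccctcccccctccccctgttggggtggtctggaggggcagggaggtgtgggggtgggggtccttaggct
BAZ2A: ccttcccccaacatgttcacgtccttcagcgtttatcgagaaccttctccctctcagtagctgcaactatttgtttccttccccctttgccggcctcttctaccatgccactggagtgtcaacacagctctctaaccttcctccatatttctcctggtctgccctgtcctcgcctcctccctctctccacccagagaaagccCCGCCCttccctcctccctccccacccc
The PBRM1 stretch held 5 GC boxes and 22 CG dinucleotides, and the CHD1 stretch held 3 GC boxes, 1 CCAAT box and 27 CG dinucleotides. The CHD2 stretch held none of these, not even 1 CG dinucleotide, and the BAZ2A stretch held 1 GC box and 6 CG dinucleotides. These 4 were picked after their letters were seen. The exon-free stretches not shown were a second one of BAZ2A (14 CG dinucleotides, 1 GC box), one of ARID5A (24 CG dinucleotides, 4 GC boxes, 1 CCAAT box) and one of ARID5B (5 CG dinucleotides, no box). RefSeq listed starts for 29 of the 39 members, 47 in all, and 57.4% of these had a GC box in the 250 bases before them, against 42.6% of all 35116 listed starts. CCAAT boxes stood before 23.4% of the members' starts and 32.0% of all, TATA boxes (TATAAA or TTTATA) before 4.26% and 10.7%, and the ETS core (CCGGAAG or CTTCCGG) before 8.51% and 8.52%. The cyclic AMP response element TGACGTCA was in none of the 47 windows and in 1.65% of all. All listed starts belong to 27305 genes, more than the 13075 tested, so they include genes not tested here. The members' windows were also richer in GC (median 65.2%, with 21 CG dinucleotides) than all windows (58.0% and 11). Whether the motif shares differ beyond this was not tested. Among members that rose, the stretches ending at the listed PBRM1 and CHD1 starts were thus rich in CG dinucleotides. The CHD2 stretch held none, but the 135 bases next to its listed start are not shown. The starts of these genes therefore cannot be compared from the stretches.

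The catalytic subunits of SWI/SNF did not pass the test. SMARCA4 (BRG1), the main ATPase here, had 521 and 522 CPM with DMSO against 492, 409 and 483 CPM with UNC1999. Its log2 fold change was -0.18 with a standard error of 0.11, with a 95% interval of -0.40 to 0.04 (edgeR adjusted p = 0.212). Each UNC1999 library was below both DMSO libraries, and in the offset fit SMARCA4 was called lower (-0.36, edgeR adjusted p = 3.15e-05). SMARCA2 (BRM), the alternative ATPase of the same complexes, had 71.02 and 68.01 CPM with DMSO against 83.5, 83.1 and 77.9 CPM with UNC1999. All UNC1999 values lay above the DMSO values, and the log2 fold change was 0.23 with a standard error of 0.11 and a 95% interval of 0.00 to 0.45 (edgeR adjusted p = 0.107). In the offset fit it was 0.02. SMARCA2 was called higher without normalization factors, with upper-quartile factors and without UNC1999 replicate 2 (0.23, edgeR adjusted p = 0.0339).

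Among the SWI/SNF core and accessory subunits 1 of 7 fell and 0 rose. This is 14.3% lower and 0% higher, beside 19.5% and 15.7% of all tested genes. SMARCC1 (BAF155), a scaffold subunit, had 151 and 146 CPM with DMSO against 104, 117 and 108 CPM with UNC1999. The groups did not overlap, and the log2 fold change was -0.44 with a standard error of 0.11 (edgeR adjusted p = 0.00155; -0.32 in the offset fit). SMARCC1 was called lower in all 18 alternative analyses. Its partner scaffold SMARCC2 (BAF170) had 224 and 216 CPM with DMSO against 195, 181 and 194 CPM with UNC1999, all below DMSO but not called (-0.21 with a standard error of 0.11, edgeR adjusted p = 0.12; -0.02 in the offset fit). SMARCD1 (BAF60A) had 211 and 196 CPM with DMSO against 189, 166 and 184 CPM with UNC1999, and SMARCD2 (BAF60B) had 301 and 285 CPM with DMSO against 312, 284 and 325 CPM with UNC1999. Neither of these 2 adaptor genes was called, with log2 fold changes of -0.18 and 0.07. The actin-related subunit gene ACTL6A (0.16), SMARCD3 (-0.13, about 4 CPM) and SMARCE1 (0.59, edgeR adjusted p = 0.0538) were not called either. At an unadjusted p under 0.05, SMARCE1 was the 1 higher gene of the 7, and DESeq2 and limma-voom called 0 higher. SMARCE1 had raw counts of only 29 and 32 with DMSO and 62, 44 and 44 with UNC1999, and 19.8% of its exonic bases in GENCODE 29 are shared with other genes, so its level is uncertain. It was called higher in 6 of 17 alternatives.

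The genes that set apart the 2 forms of SWI/SNF moved unequally. ARID1A, the defining subunit of the BAF form, had 405 and 331 CPM with DMSO against 326, 274 and 318 CPM with UNC1999. All UNC1999 values were below the lower DMSO value, but DMSO replicate 1 stood well above replicate 2, and the gene was not called (-0.27 with a standard error of 0.11, edgeR adjusted p = 0.0613). In the offset fit ARID1A was lower (-0.37, edgeR adjusted p = 3.12e-05). Its alternative ARID1B had 97.6 and 91.3 CPM with DMSO against 92.1, 93.96 and 102 CPM with UNC1999, values that overlapped, with a 95% interval of -0.20 to 0.25 for the log2 fold change. PBRM1, the bromodomain subunit of the PBAF form, had 25.6 and 29.7 CPM with DMSO against 50.8, 45.2 and 53.1 CPM with UNC1999. Its level rose by 0.84 on the log2 scale, with means of 27.7 ± 2.93 CPM with DMSO and 49.7 ± 4.06 CPM with UNC1999 (± SD over 2 and 3 libraries; edgeR adjusted p = 3.29e-06), and by 0.44 in the offset fit. ARID2, the PBAF counterpart of ARID1A, which the naming rule leaves out, had 17.01 and 17.8 CPM with DMSO against 38.4, 38.9 and 40.2 CPM with UNC1999. It rose as well (1.17 with a standard error of 0.13, edgeR adjusted p = 3.51e-08; 0.75 in the offset fit). The other PBAF genes BRD7 (-0.23) and PHF10 (0.02) were not called, and both were lower in the offset fit (-0.36 and -0.37).

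Of 13 further SWI/SNF subunit genes tested, 2 rose and 2 fell, with a median log2 fold change of -0.10. This is 15.4% each way, beside 15.7% higher and 19.5% lower of all tested genes. SS18, a BAF subunit gene, rose with ARID2 (0.44; 0.30, edgeR adjusted p = 0.219, without DMSO replicate 2). BRD9, a bromodomain subunit of a smaller SWI/SNF form, fell (-0.50, -0.29 in the offset fit). BCL11B, a zinc finger transcription factor of lymphocytes that associates with SWI/SNF, fell by 0.30 on the log2 scale (edgeR adjusted p = 0.0452). It lost that call without DMSO replicate 1 or 2 and without UNC1999 replicate 1 or 3 (edgeR adjusted p = 0.149, 0.223, 0.148 and 0.141) and in the offset fit (-0.11). Without UNC1999 replicate 2 these counts were 4 higher, with BCL7C and GLTSCR1 added, and 4 lower, with BRD7 and BCL7B added. Over all 12880 genes tested without that library, 2862 were higher and 3030 lower. The offset fit, which held 11 of the 13 SWI/SNF genes, called 3 higher and 4 lower.

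The 6 other ARID genes encode DNA-binding proteins outside the SWI/SNF core, and 4 rose while 1 fell. This is 66.7% higher and 16.7% lower, beside 15.7% and 19.5% of all tested genes. ARID5B, a partner of the histone demethylase PHF2, had 6.95 and 7.37 CPM with DMSO against 11.6, 13.4 and 14.3 CPM with UNC1999. It rose on the log2 scale by 0.87 with a standard error of 0.18 (edgeR adjusted p = 1.87e-04; 0.75 in the offset fit) and was called in all 18 alternatives. ARID5A, which binds and stabilises cytokine mRNAs, had 122 and 146 CPM with DMSO against 167, 152 and 212 CPM with UNC1999. Its log2 fold change was 0.40 with a standard error of 0.12 (edgeR adjusted p = 0.0111), but the call was lost without DMSO replicate 1 (0.27, edgeR adjusted p = 0.289), without UNC1999 replicate 3 (0.25, edgeR adjusted p = 0.159) and with a replicate block. UNC1999 replicate 3 was the highest library and replicate 2 lay close to DMSO replicate 2. ARID4A and ARID4B encode subunits of the SIN3 deacetylase complex. ARID4A had 8.94 and 10.5 CPM with DMSO against 13.7, 15.8 and 16.7 CPM with UNC1999, and ARID4B had 18.7 and 20.6 CPM with DMSO against 29.02, 33.2 and 33.3 CPM with UNC1999. They rose by 0.66 and 0.70 on the log2 scale (edgeR adjusted p = 0.00158 and 1.03e-04), with no overlap of the groups. In the offset fit they had 0.21 and 0.28 and were not called, and ARID4A was not called without DMSO replicate 1 (0.55, edgeR adjusted p = 0.0609). For ARID4B, 15.7% of exonic bases in GENCODE 29 are shared with other genes, so its level is uncertain. ARID3A, a transcription factor first known from B cells, had 72.6 and 64.4 CPM with DMSO against 50.5, 45.9 and 51.8 CPM with UNC1999. It fell by 0.47 on the log2 scale (edgeR adjusted p = 0.00133; -0.39, edgeR adjusted p = 0.0738, without DMSO replicate 1) and by 0.57 in the offset fit. Its relative ARID3B had a log2 fold change of -0.21 with a standard error of 0.11 that was not called, and -0.18 in the offset fit, where it was (edgeR adjusted p = 0.0326).

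Among ISWI genes, SMARCA5 (SNF2H), the ATPase, rose. It had 66.8 and 74.3 CPM with DMSO against 102, 102 and 96.9 CPM with UNC1999, a log2 fold change of 0.51 with a standard error of 0.11 (edgeR adjusted p = 4.95e-04). The offset fit gave 0.03, not called, and without DMSO replicate 1 the value was 0.43, edgeR adjusted p = 0.0521. The antisense gene SMARCA5-AS1 had 11.8 and 9.99 CPM with DMSO against 17.96, 16.4 and 20.03 CPM with UNC1999, and it overlaps the first part of SMARCA5 on the other strand. Whether counting used strand is not stated, so reads of SMARCA5 and its antisense partner cannot be told apart there. The other ISWI ATPase gene, SMARCA1, was listed with 1 count in UNC1999 replicate 2 and 0 elsewhere, which allows up to 0.339 to 0.372 CPM in the libraries at 0 (3 counts, counting error only).

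The ISWI partner genes held the strongest member. BPTF encodes the largest subunit of the NURF complex, which binds methylated histone H3 tails, and had 32.8 and 38.9 CPM with DMSO against 75.7, 64.4 and 77.6 CPM with UNC1999. Mean levels were 35.8 ± 4.32 CPM with DMSO and 72.6 ± 7.12 CPM with UNC1999 (± SD over 2 and 3 libraries), which is 1.02 with a standard error of 0.12 on the log2 scale (edgeR adjusted p = 1.32e-07), and 0.79 in the offset fit. It lies on chromosome 17 from 67825524 to 67984378 in GENCODE 29 (GRCh38, while the submitters' notes name hg19). BAZ1A (ACF1), the partner of SMARCA5 in nucleosome spacing, had 50.7 and 65.5 CPM with DMSO against 78.5, 80.2 and 87.8 CPM with UNC1999. It rose by 0.50 on the log2 scale (edgeR adjusted p = 0.00123), with 0.18 and no call in the offset fit and 0.32, edgeR adjusted p = 0.159, without DMSO replicate 1. BAZ1B (WSTF) had 209 and 226 CPM with DMSO against 230.5, 247 and 236 CPM with UNC1999, all UNC1999 values slightly above DMSO. It was not called (0.13 with a standard error of 0.11) but was higher in the offset fit (0.33, edgeR adjusted p = 3.38e-04). BAZ2A (TIP5), which silences ribosomal DNA repeats, had 278 and 251 CPM with DMSO against 196, 192 and 195 CPM with UNC1999. It fell in both fits (-0.44 with a standard error of 0.11, edgeR adjusted p = 0.00118; -0.32 in the offset fit), but was not called once DMSO replicate 1 was left out (-0.37, edgeR adjusted p = 0.0784). BAZ2B had 2.23 and 2.38 CPM with DMSO against 2.15, 3.60 and 3.75 CPM with UNC1999, low and overlapping values. Of 7 further partner genes tested, RSF1 rose (0.72; 0.15 in the offset fit, not called). POLE3 and CHRAC1, small histone-fold partners of SMARCA5, fell (-0.76 and -0.46; -0.52 and -0.39 in the offset fit), CHRAC1 with an edgeR adjusted p of 0.0527 without DMSO replicate 2.

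CHD1 and CHD2 both rose. CHD1, which binds methylated histone H3 at active promoters, had 38.4 and 33.4 CPM with DMSO against 60.8, 59.3 and 63.7 CPM with UNC1999. This was a log2 fold change of 0.77 with a standard error of 0.12 (edgeR adjusted p = 5.61e-06), reduced to 0.26 but still called in the offset fit (edgeR adjusted p = 0.0297). CHD2, its closest relative, had 60.6 and 62.9 CPM with DMSO against 81.98, 85.1 and 83.97 CPM with UNC1999. The UNC1999 libraries lay close together and clear of DMSO, with log2 fold changes of 0.44 with a standard error of 0.11 (edgeR adjusted p = 0.00214) and 0.48 in the offset fit. CHD2 was not called once DMSO replicate 1 was left out (0.41, edgeR adjusted p = 0.066).

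Of the NuRD ATPase genes, CHD4 fell and CHD3 and CHD5 were not called. CHD4, the main NuRD ATPase of most cells, was listed at 10.9 and 16.2 CPM with DMSO against 7.34, 8.28 and 7.05 CPM with UNC1999. It fell by 0.84 on the log2 scale (edgeR adjusted p = 3.24e-04; -0.65 in the offset fit), but DMSO replicate 2 carried much of this, with -0.53, edgeR adjusted p = 0.0872, without it. Of its exonic bases 53.5% are shared with other genes in GENCODE 29, most of them on the same strand, so its level is uncertain. CHD3 had 116 and 109 CPM with DMSO against 96.4, 97.9 and 104 CPM with UNC1999, all UNC1999 values below DMSO, and was not called (-0.17 with a standard error of 0.11, edgeR adjusted p = 0.229). CHD5, known from neurons, was near the lower limit of the count rule, with raw counts of 17 and 21 with DMSO and 29, 15 and 24 with UNC1999. Of 12 NuRD partner genes, 0 rose and 2 fell, with a median log2 fold change of -0.16. This is 0% higher and 16.7% lower, beside 15.7% and 19.5% of all tested genes. In the offset fit 0 were higher and 3 lower. The deacetylase gene HDAC1 had 549.5 and 541 CPM with DMSO against 359, 426 and 378 CPM with UNC1999 (-0.49, edgeR adjusted p = 4.28e-04; -0.11 in the offset fit, not called). The methyl-CpG binding gene MBD2 had 129 and 138 CPM with DMSO against 91.4, 105 and 90.00 CPM with UNC1999 (-0.48, edgeR adjusted p = 6.78e-04; -0.38 in the offset fit). At an unadjusted p under 0.05 the 0 of 12 higher stayed 0, and DESeq2 and limma-voom also called 0 higher. Without UNC1999 replicate 2 the counts were 1 higher (0.29, edgeR adjusted p = 0.0129 for MBD3) and 4 lower, with MTA2 and RBBP4 added. Over all 12880 genes tested without that library, 2862 were higher and 3030 lower.

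Among CHD6 to CHD9, 2 of 4 rose and 0 fell. This is 50% higher and 0% lower, beside 15.7% and 19.5% of all tested genes. CHD6 had 22.6 and 20.7 CPM with DMSO against 36.02, 31.6 and 36.3 CPM with UNC1999, a log2 fold change of 0.68 with a standard error of 0.13 (edgeR adjusted p = 1.13e-04) that was 0.73 in the offset fit and was called in all 18 alternatives. CHD9 had 6.95 and 7.85 CPM with DMSO against 11.1, 11.6 and 11.2 CPM with UNC1999, and rose by 0.60 on the log2 scale (edgeR adjusted p = 0.00698). In the offset fit CHD9 was at 0.00, and without DMSO replicate 1 it was not called (0.52, edgeR adjusted p = 0.11). CHD7, mutated in CHARGE syndrome, had 30.4 and 25.8 CPM with DMSO against 34.4, 32.8 and 27.9 CPM with UNC1999, and CHD8, a regulator of Wnt signalling, had 153 and 146 CPM with DMSO against 148, 138 and 145 CPM with UNC1999. The groups overlapped for both, with 95% intervals of -0.09 to 0.44 and -0.28 to 0.16 for the log2 fold change.

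Within the INO80 complex the members went in different directions. The ATPase gene INO80 had 79.2 and 78.95 CPM with DMSO against 57.1, 60.9 and 58.4 CPM with UNC1999. The gap between the groups was far wider than the spread within them, a log2 fold change of -0.43 with a standard error of 0.11 (edgeR adjusted p = 0.0024), but the offset fit gave -0.20 (edgeR adjusted p = 0.0553). INO80C, a small accessory subunit, had 8.57 and 9.51 CPM with DMSO against 5.31, 6.65 and 6.26 CPM with UNC1999, from raw counts of 69 and 80 with DMSO and 47, 61 and 55 with UNC1999. Its fall (-0.57 with a standard error of 0.19, edgeR adjusted p = 0.017; -0.77 in the offset fit) lost its call without DMSO replicate 1 or 2, without UNC1999 replicate 1 (edgeR adjusted p = 0.0531, 0.153 and 0.0873), without normalization factors and in DESeq2. INO80D, another accessory subunit, had 12.7 and 11.9 CPM with DMSO against 24.1, 22.2 and 23.9 CPM with UNC1999. It rose by 0.93 with a standard error of 0.15 on the log2 scale (edgeR adjusted p = 5.95e-06; 0.35 in the offset fit). INO80E had 229 and 241 CPM with DMSO against 247, 212 and 272 CPM with UNC1999, with overlapping groups. EP400, the ATPase of the TIP60 complex, had 224 and 187 CPM with DMSO against 196, 165 and 196 CPM with UNC1999, also overlapping, and was called only in the offset fit (-0.22, edgeR adjusted p = 0.0123). A gene with a related symbol, EP400NL, had a row of its own with 14.5 and 14.6 CPM with DMSO against 16.04, 14.4 and 15.6 CPM with UNC1999. Any reads that fit both genes are uncertain.

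Of 24 other genes of the INO80, SRCAP and TIP60 complexes, 2 rose and 8 fell, with a median of 0.02. This is 8.33% higher and 33.3% lower, beside 15.7% and 19.5% of all tested genes. The counts were 1 and 3 without DMSO replicate 1 and 4 and 8 without UNC1999 replicate 2, and 1 rose without DMSO replicate 2. Calls over all genes also moved with the library left out. Without UNC1999 replicate 2 they were 2862 higher and 3030 lower of 12880, and without either DMSO replicate they were fewer than with all libraries. In the offset fit 1 gene of this list was higher and 6 were lower. MEAF6, a subunit of histone acetyltransferase complexes, had 56.7 and 56.7 CPM with DMSO against 34.1, 45.6 and 36.4 CPM with UNC1999 (-0.55, edgeR adjusted p = 5.75e-04; -0.70 in the offset fit). YY1, a DNA-binding factor that recruits INO80, had 176 and 181 CPM with DMSO against 125, 139.9 and 130.4 CPM with UNC1999 (-0.44, edgeR adjusted p = 0.0015). NFRKB, an INO80 subunit gene, fell by 0.46 on the log2 scale, with -0.33, edgeR adjusted p = 0.138, without DMSO replicate 1. The genes that rose were EPC2 (0.59) and MBTD1 (0.62), both of the TIP60 complex. EPC2 was not called without DMSO replicate 2 (0.50, edgeR adjusted p = 0.0676) and MBTD1 not without DMSO replicate 1 (0.42, edgeR adjusted p = 0.15), nor was either called in the offset fit (0.30 and 0.21).

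SMARCAL1, a helicase that rewinds DNA at stalled replication forks, had 53.8 and 48.3 CPM with DMSO against 35.6, 39.9 and 34.2 CPM with UNC1999. It fell by 0.48 on the log2 scale (edgeR adjusted p = 0.00175), with -0.14 and no call in the offset fit and -0.40, edgeR adjusted p = 0.0722, without DMSO replicate 1. Other ATPases of the SNF2 type, which act in DNA repair, replication and transcription, mostly went the other way. Of 13 tested, 9 rose and 1 fell, with a median log2 fold change of 0.70. This is 69.2% higher and 7.69% lower, beside 15.7% and 19.5% of all tested genes. The list had a median GC content of 40.9%, and of tested genes under 45% GC, 36.5% were higher and 9.81% lower. In the offset fit 5 of the list were higher and 1 was lower, with a median of 0.22. BTAF1, which removes TATA-binding protein from DNA, had 24.5 and 24.7 CPM with DMSO against 50.3, 43.8 and 49.95 CPM with UNC1999 (0.96, edgeR adjusted p = 4.07e-07; 0.59 in the offset fit). SMARCAD1, a remodeller of replicating heterochromatin, had 11.3 and 9.99 CPM with DMSO against 20.6, 20.2 and 21.05 CPM with UNC1999 (0.95; 0.53 in the offset fit). HELLS, needed for DNA methylation of repeats, had 41.5 and 47.2 CPM with DMSO against 74.1, 75.3 and 71.2 CPM with UNC1999 (0.73; 0.31 in the offset fit). RAD54L2, a cofactor of steroid receptors, fell (-0.67; -0.53 in the offset fit). None of these 4 lost its call with any 1 library left out.

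**Figure D3:**
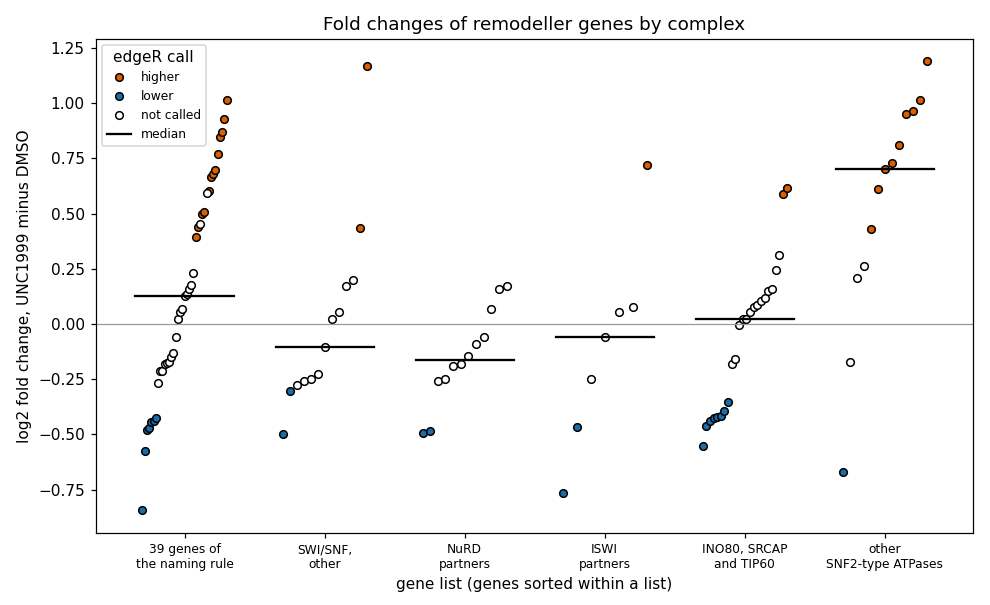
Log2 fold change (UNC1999 minus DMSO) of the 39 members and of 5 lists of other remodeller genes, 1 point per gene, sorted within each list, orange where called higher, blue where called lower and white where not called, with the median as a black line. The median of the other SNF2-type ATPases is 0.70, against 0.13 for the members and -0.16 for the NuRD partner genes.

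Over all tested genes the median fold change fell from low GC content to its lowest value near 50% GC and was higher again above it. The members' median was 0.60 under 45% GC, -0.18 between 45% and 55%, and -0.15 over 55%. Pearson's r between log2 fold change and GC content was -0.57 (Spearman's rho -0.60) over the 39 members and -0.22 (rho -0.23) over 11017 annotated genes. With transcript length the values were 0.35 (rho 0.36) and 0.19 (rho 0.19). These are correlations across genes that share the same 5 libraries and are not independent replicates, and the difference between members and all genes was not tested. Some members stood away from the trend. CHD6 (47.2% GC), CHD2 (46.8%) and ARID5A (64.4%) rose in GC ranges where few tested genes were higher, and INO80C (41.1%) and ARID3A (59.05%) fell where few genes did.

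**Figure D4:**
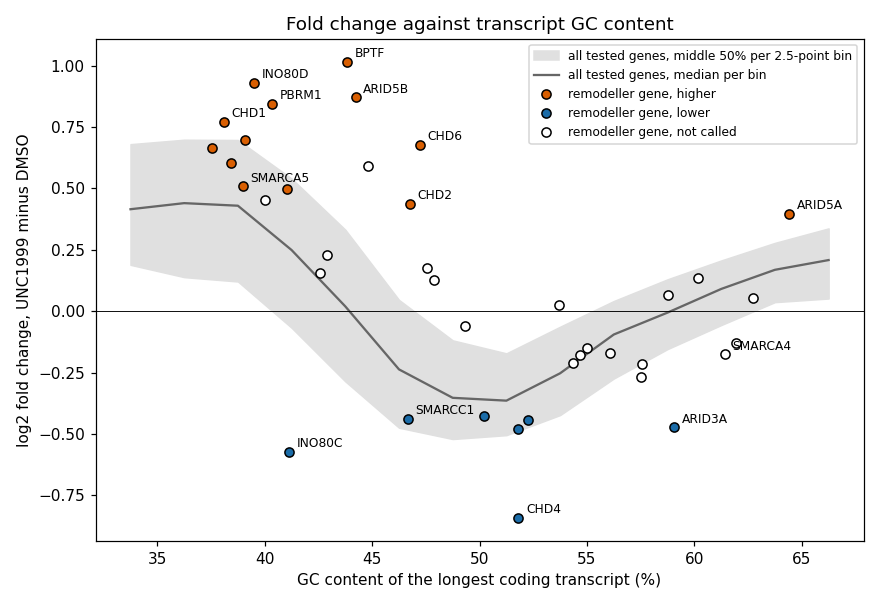
Log2 fold change (UNC1999 minus DMSO) against the GC content of the longest coding transcript for the 39 members, with the median (line) and middle 50% (band) of all tested genes in bins of GC content. The members under 45% GC lie mostly above 0, CHD6 and CHD2 lie above the band, and INO80C and CHD4 lie below it.

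Levels can be compared between genes only per length of transcript. In DMSO, CPM per kilobase (mean ± SD, n = 2) was 90.02 ± 0.169 for SMARCA4, and the other ATPase genes followed far below. CHD8 had 17.6 ± 0.54, EP400 16.03 ± 2.06, SMARCAL1 15.6 ± 1.19, CHD3 15.2 ± 0.676 and INO80 12.3 ± 0.0288 CPM per kilobase, and the neighbours among CHD8, EP400, SMARCAL1 and CHD3 did not differ beyond their spread. SMARCA2 had 9.85 ± 0.301, SMARCA5 8.91 ± 0.671, CHD2 6.59 ± 0.174 and CHD1 4.43 ± 0.433 CPM per kilobase. CHD7 (2.43 ± 0.282), CHD4 (2.03 ± 0.556), CHD6 (2.00 ± 0.125), CHD9 (0.564 ± 0.0483) and CHD5 (0.239 ± 0.0283) came last, CHD4 and CHD6 within their spread of each other, with CHD4 uncertain for the overlap given above. Among the other subunits INO80E had 112 ± 4.10 and SMARCD2 108 ± 3.96, the highest of the 39 members. INO80E shares 23.5% of its exonic bases with other genes, so its level is uncertain. At the low end BAZ2B had 0.278 ± 0.0122 and SMARCE1 0.598 ± 0.0233, below INO80D (0.869 ± 0.0387) and ARID5B (0.908 ± 0.0376). Of the 8 members that rose in both fits, 7 had at most the level of CHD2, and ARID5A had 43.6 ± 5.47 CPM per kilobase.

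Ratios between related genes in 1 library do not depend on library scaling. Of 10 pairs 9 could be formed (SMARCA1 had too few counts), and with 2 against 3 libraries the smallest p of the two-sided exact permutation test is 0.1, so no pair can pass a threshold of 0.05. The log2 ratio of SMARCA2 to SMARCA4 was -2.87 and -2.94 in DMSO and -2.56, -2.30 and -2.63 in UNC1999, an increase of 0.41 (exact permutation p = 0.1, adjusted over 9 pairs 0.18). SMARCA2 counts thus gained on SMARCA4 in each UNC1999 library, and the difference of the 2 fold changes in the offset fit was 0.38. The ARID1B to ARID1A ratio went from -2.05 and -1.86 to -1.82, -1.54 and -1.64 (exact permutation p = 0.2, 0.225 adjusted), and 0.43 in the offset fit. The SMARCC1 to SMARCC2 ratio went from -0.57 and -0.56 to -0.90, -0.63 and -0.84 (exact permutation p = 0.2, 0.225 adjusted), and -0.30 in the offset fit. Both kept the groups apart, by a small gap. The ARID5A to ARID5B ratio fell by 0.46 (-0.49 in the offset fit), and that of SMARCD1 to SMARCD2 by 0.25 (-0.08 in the offset fit). For BAZ1A to BAZ1B the increase of 0.38 turned to -0.15 in the offset fit, for BAZ2B to BAZ2A 0.82 became 0.33, and CHD3 to CHD4 (0.63) rests on the uncertain CHD4 counts. The ARID4A to ARID4B ratio moved by -0.04, with overlapping groups (exact permutation p = 0.5).

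**Figure D5:**
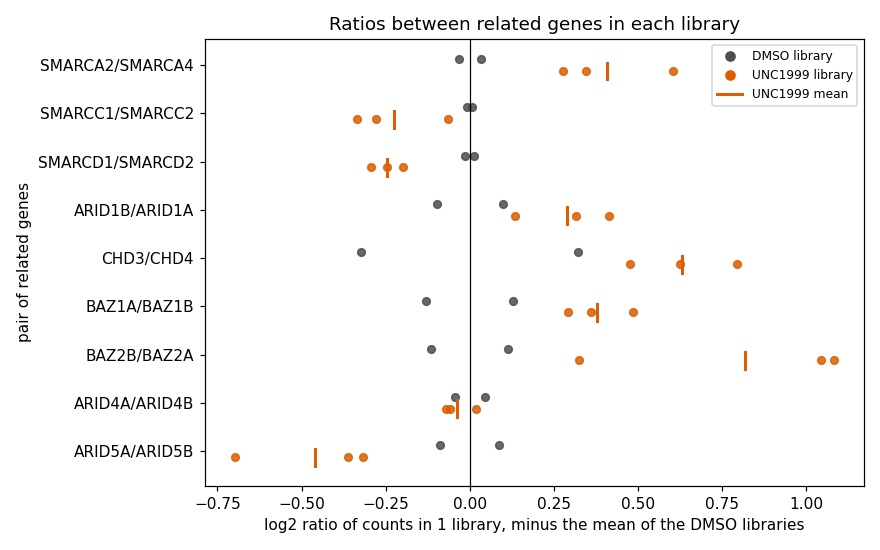
Log2 ratio of the counts of 2 related genes in each library, shown as the difference from the DMSO mean of the same pair, with grey points for DMSO, orange points for UNC1999 and an orange bar for the UNC1999 mean. The SMARCA2 to SMARCA4 ratio is higher in each UNC1999 library by 0.41 on average, while the ARID4A to ARID4B points overlap.

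The other 3 genes of the naming rule had too few counts to be members. SMARCB1, a core SWI/SNF subunit that nearly all cells use, is listed at 0 in all 5 libraries, so its row gives no measure of its expression. INO80B had raw counts of 1 and 3 with DMSO and 3, 0 and 1 with UNC1999, and 72.01% of its exonic bases are shared with the readthrough gene INO80B-WBP1, itself listed at 0. SMARCA1 is given above. Just inside the limit were CHD5 and BAZ2B, at 15 to 33 counts per library. With the 8 members left out that share at least 10% of their exonic bases with another gene, 9 of 31 rose and 6 fell. The shares were 29.03% higher and 19.35% lower, beside 15.7% higher and 19.5% lower of all tested genes. The alternative was added after the data were seen. Those left out were CHD4 (53.5%), INO80E (23.5%), SMARCE1 (19.8%), ARID4B (15.7%), SMARCD3 (13.8%), SMARCA5 (13.5%), BAZ1A (12.35%) and CHD2 (10.2%). The rises of ARID4B, SMARCA5, BAZ1A and CHD2 and the fall of CHD4 carry this uncertainty.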

How the data were processed

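The authors deposited 1 table of raw read counts, with 57221 rows named by gene symbol (222 symbols stand on several rows) and a column for each library. The submitters' processing notes name HTSeq 0.13.5, STAR 2.7.9, edgeR 3.34.0, fastp and the build hg19. The annotation, strand setting and treatment of shared reads are not given there. Column names gave the sample of each column. Totals were 8442908 to 8748106 counts. Genes passing filterByExpr were tested with edgeR 4.0.16 (R 4.3.3): TMM factors, estimateDisp, glmQLFit, glmQLFTest, adjusted over 13075 genes, threshold 0.05. Standard errors are the absolute log2 fold change over the square root of F. The offset fit took, for each library, the gap between its log2 CPM and the mean over libraries (prior count 2) and fitted natural splines to it (GC content with 6 and log2 length with 4 degrees of freedom), on 11017 genes (84.3%) with a unique symbol in GENCODE 29 (GRCh38). No coordinates were converted. Ratios used a prior count of 2. Counts were also simulated for 13075 genes, with 200 changed, a common dispersion for all genes and no GC trend. There 83% of 2-fold and 57% of 1.5-fold changes were called, and 5.41% of calls were false. The data differ in these settings, so the rates need not hold for them. The members, lists and tests were chosen with earlier results of these data known. Values in every library are given for ATPase genes, the 5 called members of smallest p per direction and the paired genes, and up to 3 called genes per direction from each other list; genes named beyond this were chosen after their values were seen. Alternatives were other scalings and filters, robust dispersion, a replicate block, each library left out, DESeq2 1.42.0, limma-voom 3.58.1, annotated genes only, the offsets and a threshold of 0.01.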

Additional observations from a re-analysis of the deposited data

How the results depend on the processing

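Among 697 combinations of a member and an alternative, 657 kept their call or lack of one, 26 lost a call, 14 gained one and 0 reversed a call; members without a call could change sign (CHD5, -0.12 to 0.39). BPTF, PBRM1, CHD1, CHD6, INO80D and ARID5B (higher) and SMARCC1 (lower) kept their calls in every alternative run. With 1 library left out, members called higher numbered 7 to 15 and lower 3 to 7, and other remodeller genes 10 to 19 and 9 to 19. The lowest member counts, 7 and 3, came without DMSO replicate 1; the lone DMSO library is then assumed to vary like the others, and over all genes 1158 were higher and 1367 lower, against 2057 and 2546 with all libraries (1309 and 1667 without DMSO replicate 2). No normalization factors shifted the median of all genes by 0.10 on the log2 scale and changed the split of all calls from 2057 higher and 2546 lower to 2949 and 1742 (upper-quartile factors, 2625 and 2021); members then split 15 and 6, or 15 and 7. With offsets, other remodeller genes called higher fell to 9 from 14, DPF2 (0.20), PHF10 (-0.37) and HDAC2 (-0.49) were called against their direction without offsets, where none was called, and the BAZ1A to BAZ1B ratio reversed (-0.15). The replicate block gave 13 members higher and 7 lower; same-numbered libraries share only a number (deviations correlated at 0.07 and 0.04). In the other genes it gave 13 and 13. At this depth, intervals were widest for CHD5, BAZ2B, SMARCE1 and SMARCD3, each under 5 CPM in DMSO.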
